A study of Mus musculus with 10 samples.

Results

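The HCN channel genes Hcn2, Hcn3 and Hcn4 and Pex5l, the gene of the HCN partner protein Trip8b, were examined in hippocampal synaptoneurosomes, a preparation enriched in pinched-off synaptic compartments. The members were listed by gene symbol and not by a cut on their values, though earlier results of these data were known. They are 4 of the 22255 genes in the deposited gene table. Their 19 annotated transcripts, 12 of them from Pex5l, are among the 102392 of the deposited transcript table. All animals were wild-type C57Bl/6J mice, and the 10 libraries were 5 from mice given vehicle and 5 from mice treated sub-chronically with AM6545. This compound blocks CB1, a cannabinoid receptor, and reaches the brain only to a small extent. The labels give no dose, age or sex and do not say whether a library came from 1 animal or from several, so n counts libraries and p-values measure the spread between libraries, which may be partly technical.

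HCN channels are cation channels that open when the membrane becomes more negative and carry the pacemaker current Ih. Binding of cyclic AMP inside the cell eases the opening of some of them, most strongly HCN2 and HCN4. In hippocampal pyramidal neurons Ih is concentrated in distal dendrites, where it shortens synaptic potentials, and CB1 receptors have been linked to this current. Trip8b is a brain protein related to the peroxisomal import receptor Pex5. It binds HCN channels both at the cyclic nucleotide binding domain and at the last residues of the channel, and its splice forms, which differ at the N terminus, differ in whether they bring channels to the cell surface or remove them from it.

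The Pex5l sequences are shown because the transcripts of this gene differ in their first coding exons. On GRCm38, Pex5l lies on the minus strand at chr3:32949408-33143247. The 4 sequences below, from the GENCODE M21 transcripts, run from the start codon through the first 30 bases of the first exon that all 4 share (chr3:33014965-33015076). Capitals mark the coding bases before that exon.
Pex5l-206: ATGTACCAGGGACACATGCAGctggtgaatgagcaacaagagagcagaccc
Pex5l-204: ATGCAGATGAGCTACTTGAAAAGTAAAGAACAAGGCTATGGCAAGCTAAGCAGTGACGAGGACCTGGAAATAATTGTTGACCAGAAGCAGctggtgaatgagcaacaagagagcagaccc
Pex5l-205: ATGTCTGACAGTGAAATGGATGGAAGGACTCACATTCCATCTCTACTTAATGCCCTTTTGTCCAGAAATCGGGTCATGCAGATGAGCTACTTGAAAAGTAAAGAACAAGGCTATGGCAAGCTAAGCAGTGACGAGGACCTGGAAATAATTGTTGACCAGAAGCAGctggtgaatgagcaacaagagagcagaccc
Pex5l-209: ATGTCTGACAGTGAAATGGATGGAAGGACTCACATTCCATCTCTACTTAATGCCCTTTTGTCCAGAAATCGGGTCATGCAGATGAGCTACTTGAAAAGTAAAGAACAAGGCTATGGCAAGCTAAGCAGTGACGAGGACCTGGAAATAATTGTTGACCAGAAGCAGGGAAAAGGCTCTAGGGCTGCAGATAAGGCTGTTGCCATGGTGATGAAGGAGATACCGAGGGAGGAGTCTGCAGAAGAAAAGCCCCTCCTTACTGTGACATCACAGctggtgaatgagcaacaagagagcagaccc

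Pex5l-206 started at an upstream first exon, whose coding part spans 21 bases (chr3:33142849-33142869), and was spliced straight to the shared exon. Pex5l-205 started at a downstream first coding exon of 93 bases (chr3:33081976-33082068), followed by one of 72 bases (chr3:33080465-33080536). Pex5l-209 held a further optional exon of 105 bases (chr3:33024696-33024800). Pex5l-204 used the last 18 coding bases of the downstream exon. In codons the 4 forms measured 567 for Pex5l-206, 591 for Pex5l-204, 615 for Pex5l-205 and 650 for Pex5l-209. The annotated transcripts Pex5l-201 and Pex5l-208 held the same coding sequence as Pex5l-205, and Pex5l-210 and Pex5l-211 the same as Pex5l-209. No protein-coding transcript of this release joined the upstream first exon to the optional exon, though the non-coding Pex5l-202 held both. How reads of such a coding form, if present, were assigned is not known.

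**Figure D1:**
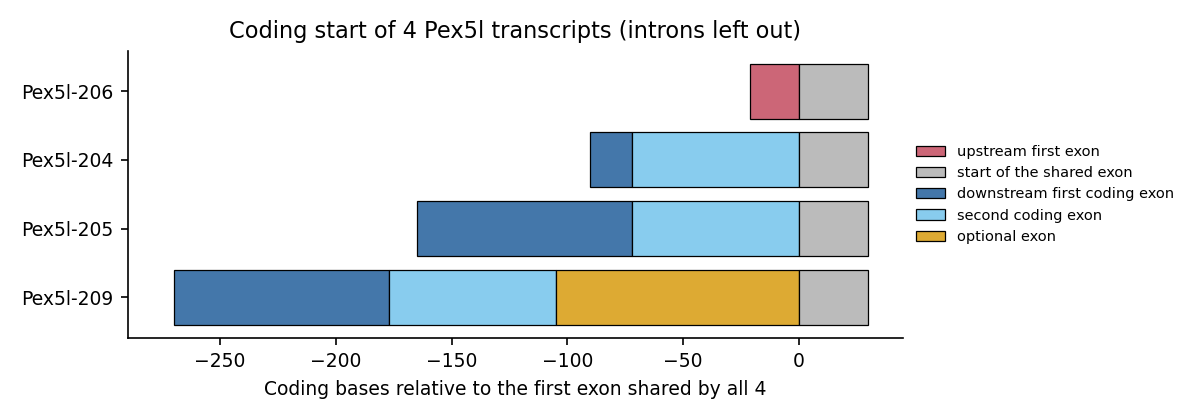
Coding start of 4 Pex5l transcripts, in coding bases (x axis) before and after the start of the first exon that all 4 share, with introns left out and 1 bar per transcript. Pex5l-206 has 21 coding bases before the shared exon, Pex5l-204 has 90, Pex5l-205 has 165 and Pex5l-209 has 270.

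The 3' ends of the HCN coding sequences are shown because the last residues of the channel are a Trip8b binding site. Each line gives the last 30 coding bases before the stop codon on GRCm38 (GENCODE M21), with the last 9 bases, the final 3 codons, in capitals. They lie at chr10:79735508-79735537 on the plus strand for Hcn2, at chr3:89147602-89147631 on the minus strand for Hcn3 and at chr9:58860731-58860760 on the plus strand for Hcn4.
Hcn2: tctgcgcgctcgcgcctctctTCCAACTTG
Hcn4: ccagtacgctccaaactgccgTCTAATTTA
Hcn3: cccagaggtccccaaatttctGCCAACATG
Different codons can encode the same residue, so these bases do not by themselves show how alike the binding residues are, and protein sequences were not used here. The coding sequences held 863 codons in Hcn2, 779 in Hcn3 and 1201 in Hcn4.

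Library totals ranged from 18106112 to 25899794 estimated counts. Synaptic genes were abundant, with Snap25, a vesicle fusion protein gene, at a mean CPM (counts scaled to a common library size after TMM) of 3964 in vehicle and 3801 in AM6545 libraries. Genes of other cells were abundant too, among them the myelin gene Mbp at 9226 and 10224 CPM, so the fraction was not free of glial RNA. The mean log2 CPM of 6 synaptic markers ranged from 8.23 to 8.56 in vehicle and from 8.33 to 8.62 in AM6545 libraries, and that of 6 oligodendrocyte markers from 9.83 to 10.33 and from 9.72 to 10.71. The 7 markers of thalamus and habenula, which lie beneath the hippocampus, had means from 2.54 to 2.98 and from 2.56 to 3.36. Of these 7, 6 were tested for a difference, and none was at 0 in every library. Across 14358 genes that passed the expression filter, 0% passed edgeR's quasi-likelihood test at a Benjamini-Hochberg adjusted p of 0.05, and 1.88% (270 genes) had an unadjusted p under 0.05.

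Per length, Trip8b RNA was far more abundant than the RNA of the 3 channels together. TPM, a level per transcript length and library computed from the transcript counts and annotated transcript lengths, averaged 88.5 ± 17.3 for Pex5l over all libraries (SD, n = 10), above 88.6% of the 18698 genes with a value. Hcn2, the most widely expressed HCN gene of the brain, averaged 12.9 ± 3.21 TPM, above 59.0% of genes (SD, n = 10). Hcn3, whose channel responds little to cyclic AMP, averaged 3.60 ± 0.687 TPM (SD, n = 10). Hcn4, best known as the channel of the cardiac sinus node and expressed in the thalamus, averaged 0.154 ± 0.0452 TPM and lay above 17.1% of genes (SD, n = 10).

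This order, Pex5l over Hcn2 over Hcn3 over Hcn4, held in 10 of 10 libraries at each step, so no neighbours in it overlapped within a library. Within a library, Pex5l exceeded Hcn2 by 5.25-fold to 10.2-fold in TPM, Hcn2 exceeded Hcn3 by 2.18-fold to 4.79-fold, and Hcn3 exceeded Hcn4 by 12.7-fold to 42.0-fold. Of the summed TPM of the 3 channels, Hcn2 made up 76.4 ± 5.69% with vehicle and 77.4 ± 2.87% with AM6545 (SD, n = 5 each). The lowest Hcn2 part, 67.5%, was in vehicle replicate 1. The ratio of Pex5l to the 3 summed channels, in TPM, averaged 5.51 ± 0.894 with vehicle and 5.37 ± 1.25 with AM6545 (SD, n = 5 each), and the groups overlapped.

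The comparison of AM6545 with vehicle asked whether the drug was accompanied by another level of these RNAs. None of the 4 genes passed the test: 0 of 4 had an adjusted p under 0.05 with edgeR (0 of 4 at an unadjusted p under 0.05), against 0% of all genes. All 4 estimates were above 0, at 1.06-fold to 1.15-fold, where 48.1% of all genes tested had an estimate above 0. In bulk RNA, fewer cells or synaptic compartments of a type and less RNA in each cannot be told apart.

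**Figure D2:**
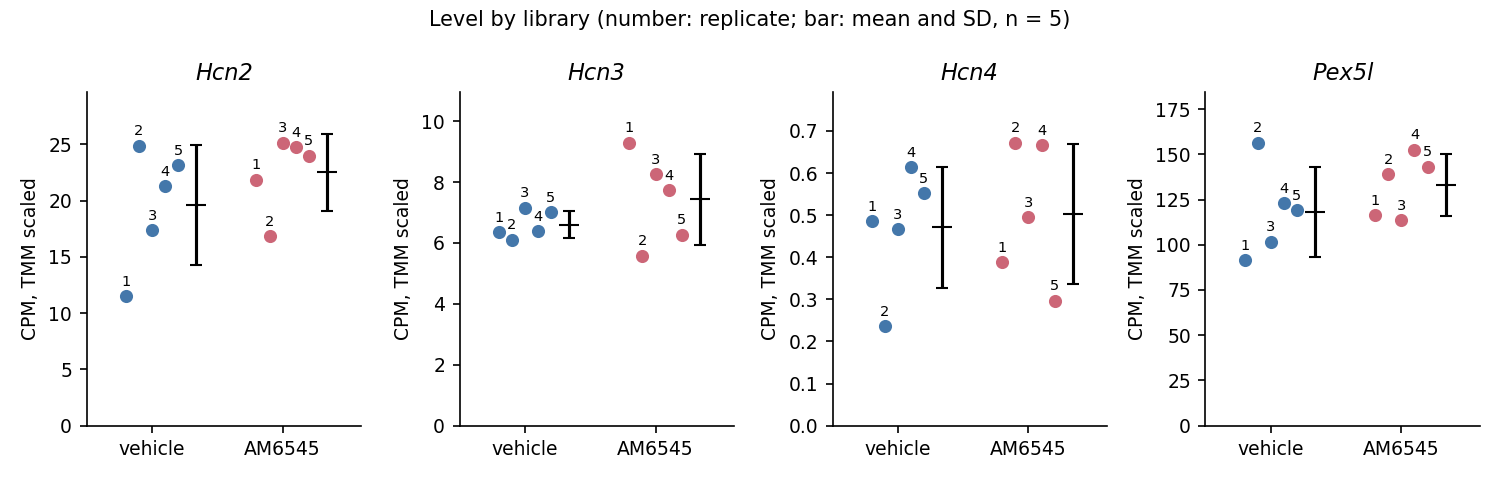
CPM (TMM scaled, y axis from 0) of Hcn2, Hcn3, Hcn4 and Pex5l in each vehicle (blue) and AM6545 (red) library, with the replicate number at each point and the mean and SD (n = 5) as a bar. The groups overlap for all 4 genes, and vehicle replicate 1 has the lowest Hcn2 (11.5 CPM) and Pex5l (91.4 CPM).

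Hcn2 (ENSMUSG00000020331.10, chr10:79716634-79736108, plus strand, GRCm38) measured 11.5, 24.9, 17.4, 21.2 and 23.2 CPM in vehicle replicates 1 to 5. In AM6545 replicates 1 to 5 it measured 21.8, 16.8, 25.1, 24.8 and 24.0 CPM. Vehicle replicate 1 was the lowest of all and AM6545 replicate 3 the highest, with 1 of 5 AM6545 libraries above all vehicle libraries. The means were 19.6 ± 5.33 and 22.5 ± 3.41 CPM (SD, n = 5 each), and the log2 fold change was 0.20 ± 0.17 (SE, edgeR unadjusted p = 0.271, adjusted p = 0.9998). The 95% interval, 0.890-fold to 1.47-fold, leaves room for a modest difference in either direction. Without vehicle replicate 1 the log2 fold change was 0.05 (edgeR unadjusted p = 0.675).

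Hcn3 (ENSMUSG00000028051.11, chr3:89146074-89160196, minus strand) kept within a narrow range in the vehicle libraries, at 6.36, 6.11, 7.15, 6.39 and 7.01 CPM in replicates 1 to 5. The AM6545 libraries spread on both sides of that range, at 9.28, 5.58, 8.26, 7.74 and 6.28 CPM, with 3 above all vehicle libraries and 1 below all of them. The means were 6.60 ± 0.453 and 7.43 ± 1.498 CPM (SD, n = 5 each), and the log2 fold change was 0.17 ± 0.15 (SE, 95% interval 0.909-fold to 1.40-fold, edgeR unadjusted p = 0.255, adjusted p = 0.9998). Without AM6545 replicate 1, the highest library, it was 0.07 (edgeR unadjusted p = 0.647). In GENCODE M21 the exons of Hcn3 share 711 of 4154 bases with Pklr on the opposite strand, and the use of strand in counting is not given in the sources used here. Pklr itself held 0 to 3 counts per library. Pex5l shares 340 and 24 of its 8846 exon bases with the antisense genes Gm37459 and 4930419G24Rik. Neither was found by symbol among the counted genes, so their levels cannot be given.

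Hcn4 (ENSMUSG00000032338.10, chr9:58823412-58863175, plus strand) rested on 5 to 16 counts per library. It measured 0.485, 0.237, 0.467, 0.614 and 0.552 CPM in vehicle replicates 1 to 5, and 0.388, 0.672, 0.496, 0.666 and 0.297 CPM in AM6545 replicates 1 to 5. Every library was above the level of 3 counts, which is at most 0.166 CPM, and the groups overlapped widely. The log2 fold change was 0.08 ± 0.35 (SE, 95% interval 0.633-fold to 1.78-fold, edgeR unadjusted p = 0.813, adjusted p = 0.9998), with room in that interval for a difference in either direction. Its sign changed to -0.06 with the thalamus and habenula marker mean as a covariate, to -0.08 without vehicle replicate 2 and to -0.03 without AM6545 replicate 2.

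Pex5l (ENSMUSG00000027674.17) measured 91.4, 156.3, 101.8, 123.0 and 119.0 CPM in vehicle replicates 1 to 5. In AM6545 replicates 1 to 5 it measured 116.4, 139.0, 113.7, 152.5 and 143.1 CPM. The highest library of all was vehicle replicate 2, so 0 of 5 AM6545 libraries lay above all vehicle libraries. The means were 118.3 ± 24.8 and 132.9 ± 17.1 CPM (SD, n = 5 each), and the log2 fold change was 0.17 ± 0.13 (SE, 95% interval 0.923-fold to 1.37-fold, edgeR unadjusted p = 0.228, adjusted p = 0.9998). Without vehicle replicate 2 it was 0.29 (edgeR unadjusted p = 0.0285, and the smallest adjusted p over the fits that left out 1 library was 0.915), and without vehicle replicate 1 it was 0.09 (edgeR unadjusted p = 0.476).

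**Figure D3:**
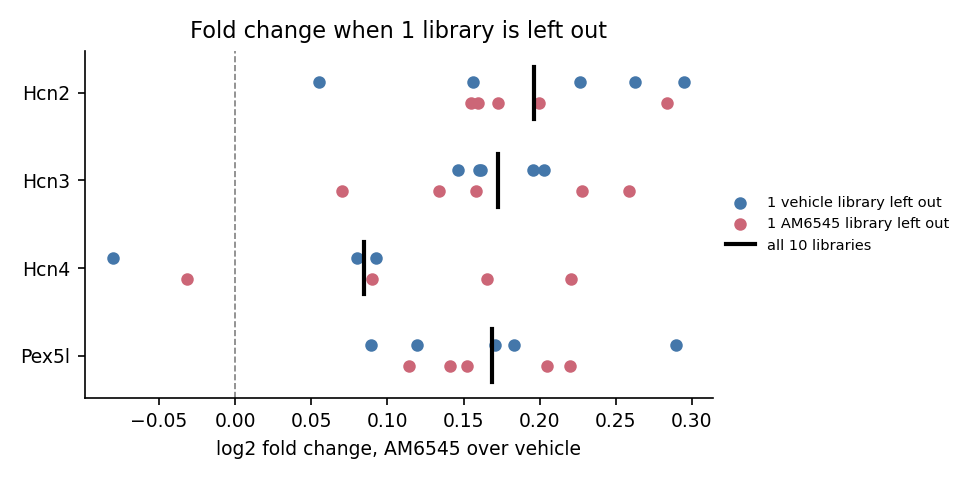
log2 fold change of AM6545 over vehicle (x axis) for the 4 genes with all libraries (black line) and with 1 vehicle (blue) or 1 AM6545 (red) library left out. Hcn2 ranged from 0.05 to 0.29, Hcn3 from 0.07 to 0.26 and Pex5l from 0.09 to 0.29, while Hcn4 ranged from -0.08 to 0.22 and was tested in 7 of these fits.

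Hcn2 and Pex5l were both lowest in vehicle replicate 1, which also had the lowest mean log2 CPM of the synaptic (8.23), excitatory neuron (7.61) and astrocyte (7.89) markers and the highest of the interneuron markers (6.01). The part of these in either level was not tested. Over the 10 libraries their log2 CPM gave Pearson r = 0.677 (permutation p = 0.0374, adjusted over 6 pairs of members 0.224) and Spearman rho = 0.49 (permutation p = 0.155, adjusted 0.695), which did not pass the correction. Without vehicle replicate 1 and AM6545 replicate 2, the libraries farthest from the Hcn2 median, r was 0.704. Split by group, r was 0.882 in the vehicle and -0.102 in the AM6545 libraries, so the relation was not seen within both groups, and groups of 5 are too small to test it. Of the other 5 pairs, none had a permutation p under 0.05, and r ranged from -0.247 for Hcn2 with Hcn4 to 0.347 for Hcn2 with Hcn3. The value of Hcn4 with Pex5l, -0.201, became 0.708 without vehicle replicate 2 and AM6545 replicate 5.

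The genes whose log2 CPM followed each member most closely over the 10 libraries were ranked by Pearson r among the other 14357 genes tested, as a description, since the highest of so many values is high by selection and all points share their libraries. For Hcn2 they were Riok3, a protein kinase gene (r = 0.962), Cds1, an enzyme of phospholipid synthesis (r = 0.953), and Gfap, the intermediate filament of astrocytes (r = 0.952). For Hcn3 they were the transcription factor gene Lhx2 (r = 0.923), the secretory pathway kinase gene Fam20c (r = 0.917) and the integrin gene Itgb5 (r = 0.913). For Hcn4 they were the protocadherin gene Pcdh10 (r = 0.975), the NALCN channel subunit gene Unc79 (r = 0.946) and the cytoskeletal linker gene Macf1 (r = 0.927). For Pex5l they were the chromatin remodeller gene Smarcc1 (r = 0.971), the RNA-binding protein gene Lsm14b (r = 0.967) and the histone deubiquitinase gene Mysm1 (r = 0.961). No member was among the 3 closest genes of another.

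At the transcript level, Hcn2 counts were assigned to Hcn2-202 alone, at 100% in every library. Hcn2-201, which has the same coding length (863 codons), was listed at 0 in all 10. Hcn4 has a single annotated transcript. Hcn3 counts were 98.5% Hcn3-201, the protein-coding form, with 0 to 7 counts per library on the retained-intron form Hcn3-203. Most of the variety lay in Pex5l, of which 9 of 12 transcripts passed the filter and 5 were at 0 in at least 1 library.

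Pex5l-206, the form with the upstream first exon, held the largest mean share of Pex5l counts, 34.1%, and ranged from 27.6% to 42.3% over the libraries. The 3 transcripts that code for 650 codons, with the optional exon, together held 23.3 ± 2.32% with vehicle and 21.8 ± 5.07% with AM6545 (SD, n = 5 each). The 3 that code for 615 codons held 22.2 ± 3.54% and 23.7 ± 7.26% (SD, n = 5 each). Pex5l-204, with 591 codons, held 15.9 ± 2.58% and 15.9 ± 2.24% (SD, n = 5 each). These 4 coding forms had counts in every library, and in each the groups overlapped.

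**Figure D4:**
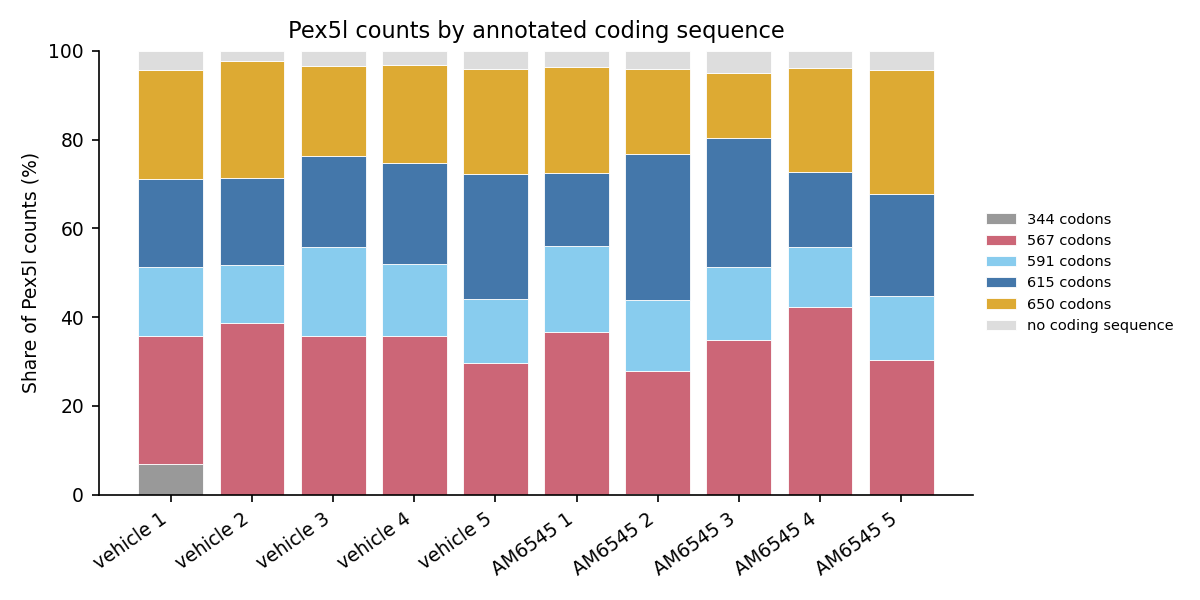
Share of Pex5l estimated counts (y axis, percent) by annotated coding sequence in each of the 10 libraries, with transcripts that have no coding sequence in light grey. The form of 567 codons ranges from 27.6% to 42.3%, and the form of 344 codons is seen at 6.82% in vehicle replicate 1 and at 0.256% or 0% in the other libraries.

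Transcripts that begin at the upstream first exon, Pex5l-206 with 3 non-coding ones, held 33.2%, 41.0%, 39.4%, 39.0% and 33.9% of Pex5l counts in vehicle replicates 1 to 5. They held 40.3%, 31.6%, 40.0%, 46.1% and 34.6% in AM6545 replicates 1 to 5. The AM6545 libraries included both the lowest and the highest of the 10, and the difference in means was 1.27 percentage points (two-sided exact permutation test, p = 0.690, adjusted over 2 tests 0.690). Among transcripts that begin downstream, those with the optional exon held 40.9%, 44.5%, 33.3%, 36.3% and 35.6% of counts in vehicle and 40.1%, 28.3%, 24.3%, 43.4% and 42.7% in AM6545 libraries. That difference was -2.36 percentage points (two-sided exact permutation test, p = 0.595, adjusted 0.690), with 2 of 5 AM6545 libraries below all vehicle libraries. These 2 groupings were chosen after the values were seen, and the smallest p that the 252 arrangements allow is 0.00794.

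Some single transcripts were at 0 in one library and well covered in another, while the sum over transcripts of the same coding sequence was never at 0 for these 4 forms. Pex5l-209 was listed at 0 in AM6545 replicate 3 and held 319 to 735 counts in the others. In that same library Pex5l-210, with the same coding sequence, was at its highest, 224 counts, and it was listed at 0 in 6 libraries. Pex5l-203, which starts inside the gene and codes for 344 codons, was listed at 129 counts in vehicle replicate 1, at 7 in AM6545 replicate 2 and at 0 in the other 8. Estimates that divide reads between overlapping transcripts carry an error that these tables do not give.

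Of the 9 Pex5l transcripts tested, 0 had an adjusted p under 0.05 with edgeR, against 0.00314% of 31848 transcripts. At an unadjusted p under 0.05 there was 1 of 9, against 1.97% of all. Over the 12 tested transcripts of the 4 genes, 9 had an estimate above 0, against 49.5% of all transcripts. The 1 Pex5l transcript at an unadjusted p under 0.05 was Pex5l-202, a retained-intron transcript that joins the upstream first exon to the optional exon. Its CPM in replicates 1 to 5 was 1.20, 1.82, 1.76, 1.97 and 2.10 with vehicle and 1.83, 2.68, 3.75, 3.11 and 3.29 with AM6545, on 25 to 75 counts, with 4 of 5 AM6545 libraries above all vehicle libraries. Its log2 fold change was 0.72 ± 0.25 (SE, edgeR unadjusted p = 0.0163, adjusted p = 0.9999), so it did not pass the threshold, and it made up 1.88% of Pex5l counts on average.

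The main coding forms had log2 fold changes of 0.17 for Pex5l-206 (95% interval -0.33 to 0.67), 0.18 for Pex5l-204 (-0.09 to 0.45) and 0.28 for Pex5l-205 (-0.28 to 0.85). For Pex5l-209 the value was -0.13, with an interval from -1.99 to 1.73 that includes its library at 0. A test of transcript usage, which asks whether the makeup of a gene's transcripts differed, did not pass for Pex5l (edgeR's quasi-likelihood test, Simes method, adjusted p = 0.999997). Of 8189 genes with more than 1 tested transcript, 0.0611% passed by the Simes p and 0.0733% by the F test.

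**Figure D5:**
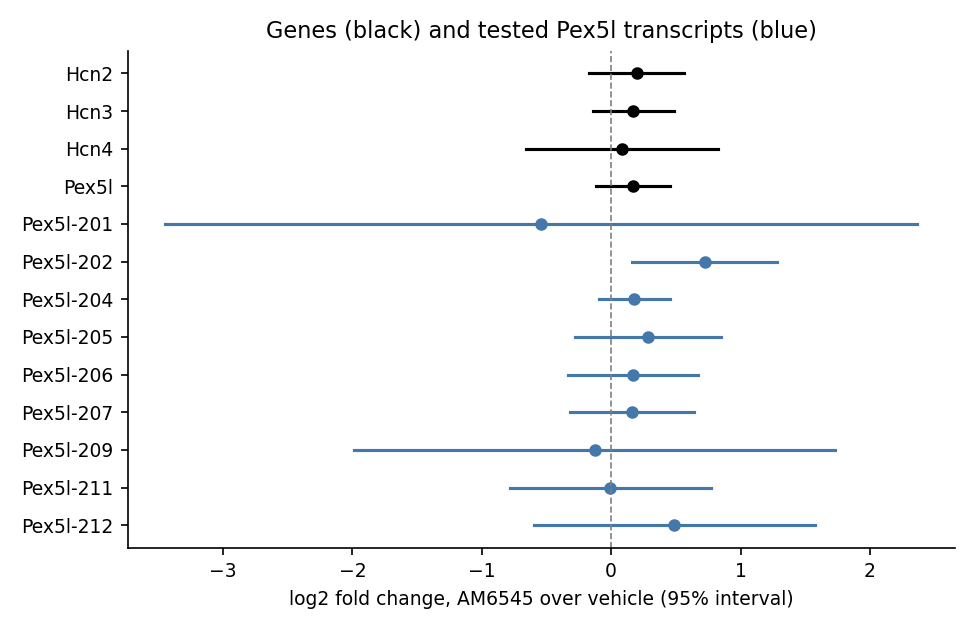
log2 fold change of AM6545 over vehicle with its 95% interval (x axis) for the 4 genes (black) and the 9 tested Pex5l transcripts (blue). Every interval includes 0 except that of Pex5l-202 (0.16 to 1.28), whose adjusted p was 0.9999.

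The related genes of 5 lists gave the same count of calls, with 0 of 62 tested genes at an adjusted p under 0.05 with edgeR, against 0% of all genes. At an unadjusted p under 0.05 there was 1 of 62, where 1.88% of all genes were, so this count is near the background. The median log2 fold change over all genes tested was -0.01. Of 16 genes of HCN partners and trafficking proteins, 14 were tested, with a median of 0.06. The most abundant were Ap2m1, a subunit of the clathrin adaptor of endocytosis, at 744.1 ± 67.9 and 777.9 ± 93.7 CPM, Cltc, clathrin heavy chain, at 257.2 ± 24.0 and 289.7 ± 66.2 CPM, and the membrane contact protein gene Vapa at 427.6 ± 44.6 and 433.2 ± 52.9 CPM (vehicle and AM6545, SD, n = 5 each). The lowest estimate of this list was -0.75 for Kcne2, a small channel subunit gene that is abundant in choroid plexus. The 6 choroid plexus markers, averaged on the log2 CPM scale, stood at 2.13 in vehicle replicate 4 and at 4.86 to 7.12 in the other libraries, and their part in the Kcne2 value was not tested.

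Among 15 genes that make or break down cyclic AMP, all tested, the median log2 fold change was -0.03. Adcy1, a calcium-stimulated adenylyl cyclase, measured 257.5 ± 23.0 and 246.3 ± 49.1 CPM, and the phosphodiesterase genes Pde1a and Pde2a measured 259.9 ± 18.1 and 252.8 ± 39.1 CPM, and 204.4 ± 29.3 and 220.8 ± 22.9 CPM (vehicle and AM6545, SD, n = 5 each). Among 14 genes of a signalling route from CB1 to HCN channels, all tested, the median was 0.03. The kinase gene Mapk10 (JNK3) measured 318.1 ± 22.0 and 316.2 ± 28.4 CPM, and the G protein genes Gnai1 and Gnao1 measured 278.8 ± 28.8 and 297.1 ± 27.2 CPM, and 260.8 ± 27.0 and 272.2 ± 8.23 CPM (SD, n = 5 each).

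Prkg2, a cyclic GMP-dependent protein kinase gene of that list, was the gene at an unadjusted p under 0.05. Its CPM ran from 3.50 to 5.81 in vehicle libraries and from 5.74 to 7.77 in AM6545 libraries, with 4 of 5 AM6545 libraries above all vehicle libraries. The log2 fold change was 0.52 ± 0.16 (SE, edgeR unadjusted p = 0.00449, adjusted p = 0.9998), short of the threshold.

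Of 14 other channels with a cyclic nucleotide binding domain, 9 passed the filter, with a median log2 fold change of -0.03. The photoreceptor and olfactory CNG channel genes Cnga1, Cnga2, Cnga3, Cngb1 and Cngb3 did not pass it. The potassium channel genes Kcnh3, Kcnh7 and Kcnh1 were the most abundant of the 9, at vehicle means of 61.6 ± 8.98, 34.9 ± 3.37 and 32.1 ± 5.66 CPM and AM6545 means of 64.4 ± 11.1, 34.7 ± 6.34 and 32.9 ± 2.41 CPM (SD, n = 5 each). Of 10 peroxisomal import genes, all tested, the median was 0.03 and the highest value was 0.24 for Pex5, the relative of Pex5l. Pex14, a docking protein of the import machinery, measured 76.9 ± 8.24 and 72.5 ± 8.08 CPM, Pex13 measured 56.9 ± 1.75 and 55.4 ± 4.66 CPM, and Pex2 measured 56.5 ± 4.02 and 54.3 ± 4.25 CPM (SD, n = 5 each).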

How the data were processed

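The deposited tables hold estimated counts per gene and per transcript, made by the authors with Salmon 1.5.2 and mm10, per the submitters' processing notes, which give no further steps. The unit was read from the values, of which 38.6% of the gene table were not whole, and counts were rounded before fitting. Per the labels' protocols, libraries were prepared with the SMARTer kit for very small inputs. Symbols, transcript names, lengths and sequences came from GENCODE M21 (GRCm38). Only 11 gene identifiers carried the version suffix of that release, so counting may have used another release, and neither that release nor the use of strand is given in the sources used here.

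Genes, transcripts and transcript usage were fitted over all features with edgeR 4.0.16 in R 4.3.3 (TMM, filterByExpr with minimum count 10 and total 15, robust quasi-likelihood test, group as the only term, Benjamini-Hochberg threshold 0.05, two-sided). Standard errors are the log2 fold change over the root of F. Log2 CPM used a prior count of 2. TPM used full annotated lengths. Other settings were DESeq2 1.42.0, other scalings and filters, marker covariates, the replicate number as a block and leaving out each library. Permutation tests of correlations used 100000 resamples (scipy 1.17.1). Scripts were tested on simulated counts.

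Depth was 18106112 to 25899794 counts per library, which puts 3 counts at 0.116 to 0.166 CPM, for counting error only, since reads carried no molecular identifiers. The members, lists and groupings were chosen with earlier results of these data known. Named genes were the 4 members, the 3 most abundant genes of each list with any at an unadjusted p under 0.05, the 3 genes most alike to each member, and Pex5l transcripts with at least 5% of counts or an unadjusted p under 0.05. Kcne2, Pex5, Pklr and transcripts named beside these were chosen after their values were seen.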

Additional observations from a re-analysis of the deposited data

Results flagged for a closer look

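For members, ratios, marker lists and some of the Pex5l shares, the extreme libraries of each group were compared with the remaining 4. Of 48 such tests, 1 set a library apart, and chance gives about 2.4. It was vehicle replicate 4, where the choroid plexus markers averaged 2.13 on the log2 CPM scale, while the 4 remaining vehicle libraries lay between 6.64 and 7.12. Of the levels, shares and ratios of the members that were compared, none was flagged in this way. For the shares of the 344-codon Pex5l form and of the downstream starts no such result is given. The 344-codon form was above 0 only in vehicle replicate 1 (6.82%) and AM6545 replicate 2 (0.256%). The downstream starts held 66.1% of Pex5l counts in vehicle replicate 5 and 59.0% to 61.0% in the remaining vehicle libraries. Without vehicle replicate 4 the log2 fold changes were 0.23 for Hcn2, 0.16 for Hcn3 and 0.18 for Pex5l, and Hcn4 did not pass the filter.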

How the results depend on the processing

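Hcn2, Hcn3 and Pex5l kept an estimate above 0 and no call in all 8 other settings and all 10 fits that left out 1 library. Under a replicate block the log2 fold changes were 0.23, 0.15 and 0.18 (edgeR unadjusted p = 0.221, 0.318 and 0.0989), and 0.08 for Hcn4. Whether the numbers pair the libraries is not known. Same-numbered libraries correlated in their deviations from the group means at -0.14, -0.19, 0.23, 0.39 and 0.06. Of the vehicle libraries, 3 of 5 were closest to their own number, and these values do not settle the question. Hcn4 had no value with at least 10 counts in every library or in the 3 fits that dropped it, and gave -0.056 with the thalamus and habenula covariate and -0.080 to 0.22 over the fits that left out 1 library. The count of genes past the threshold, 0, ran from 0 to 1 over those fits, and none was a member or a listed gene. The count of transcripts, 1, was 11 with DESeq2, 2 without a filter, 0 with 10 counts in every library and 0 with the block, and 0 to 4 with 1 library left out. The count of genes by transcript usage, 5, was 2 with 10 counts in every library and 8 with the block, and 9 to 18 with 1 library left out. Neither Pex5l by usage nor its 5 transcripts with the most counts or the smallest p were in these counts. The most abundant transcript alone, Pex5l-206, gave 32.2 TPM against 88.5 for the gene, because it leaves out the others. Mapk10 turned to 0.01 with either covariate (0.0056 for thalamus and habenula, 0.0077 for oligodendrocytes). Leaving out 1 library turned the sign of Pex5l-209 (-0.40 to 0.19), Vapa (-0.023 to 0.089), Pde1a (-0.10 to 0.044), Adcy1 (-0.17 to 0.034), Mapk10 (-0.044 to 0.047), Kcnh3 (-0.016 to 0.14), Kcnh7 (-0.087 to 0.074) and Kcnh1 (-0.048 to 0.10), of the upstream-start share (-0.62 to 3.0 points) and of the optional-exon share (-4.27 to 0.50 points). The cause was not tested. Hcn4 rested on 5 to 16 counts per library.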
